A study of Solanum lycopersicum with 10 samples.

Results

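The 64 tomato cDNA clones described here carry names that begin with cLED and stood higher in leaves of wounded plants than in leaves of unwounded plants of both genotypes tested. They were chosen from 2512 cLED clones, among 11153 rows in all, by their measured values: the mean log2 ratio of wounded minus unwounded arrays had to be 1 or more, at least 2-fold, in each genotype. These wounding changes therefore describe how the clones were picked, and no test of them is given. Of the cLED clones, 2.55% met the rule, beside 55 of the other 8641 rows (0.637%). The share was uneven among the other prefixes: 1.95% of 973 cLET rows, 0.542% of 2212 cLEC rows and 3.49% of 86 cTOA rows. The deposited table does not pair clone identifiers with gene names, 0 cLED names matched the RefSeq gene table, and no gene or function is assigned to any clone here.

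Total leaf RNA of tomato was hybridised on 10 cDNA arrays with 2 channels each, with a pool of all the samples in channel 1 and the leaf sample in channel 2. Leaves came from wounded plants of the mutant (3 arrays, called mutant systemic wounded in the labels), unwounded plants of the mutant (2 arrays), wounded wild type plants (2 arrays, wild type systemic wounded) and unwounded wild type plants (3 arrays). The mutant was made with an antisense Rboh construct, whose promoter is not given in the sources used here, and neither are the line and the age of the plants. Nothing in the labels says that arrays of a group came from separate plants, so the spread between arrays may be technical. The labelled tissue could not be checked against markers, because only 2 rows carry a gene name and a ratio to a pool gives no level.

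A tomato plant that is wounded on some leaves also changes gene expression in leaves that were not injured, a response called systemic. The peptide systemin and the hormone jasmonate act in this pathway in tomato, and proteinase inhibitors and other proteins that deter insects are its best-known products. Rboh genes encode respiratory burst oxidase homologs, NADPH oxidases of the plasma membrane that produce superoxide, which is turned into hydrogen peroxide and can act as a signal. A list of 14 symbols of this pathway, with proteinase inhibitors, polyphenol oxidase, enzymes of jasmonate synthesis and the systemin precursor, had 0 matches among the row names. How those genes behaved was therefore not analysed here.

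The values are log2 ratios of leaf sample to pool, with each array's median set to 0, so that 0 means the median ratio of the array's rows. Which way the ratio runs could not be settled from the labels, which name no dyes. Over all rows, 2 of the pairs of arrays correlated below -0.3, the lowest at -0.43. Turning the sign of every array would not change these correlations. As deposited, the linear ratios of a clone over the 10 arrays averaged between 0.562 and 1.53 among the 64 clones (median 1.10). Turning the sign gives averages from 1.15 to 12.6 (median 2.07). Ratios to a pool of equal parts average 1. The deposited median lies nearer to that value than the turned one, but any scaling of the values is unknown. All directions are therefore stated as sample over pool, and turning the sign would make all 64 clones lower in wounded plants and exchange higher and lower in every comparison below. In leaf RNA, fewer cells of a type and less RNA per cell cannot be told apart.

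The median of the clones lay above 0 on all 5 arrays of wounded plants and below 0 on all 5 arrays of unwounded plants, by very different amounts. On the wounded mutant arrays, replicates 1, 2 and 3, the median over the 64 clones was 0.18, 1.32 and 0.31. On the mutant control arrays, replicates 2 and 3, it was -2.49 and -0.66. On the wounded wild type arrays it was 0.34 and 0.66, against -2.43, -1.45 and -1.20 on the wild type control arrays. All 64 clones were below 0 on mutant control replicate 2 and on wild type control replicate 1, while 61 were above 0 on wounded mutant replicate 2. Single values ran from -5.82 to 2.72, and 1 of the 640 sat at the commonest ratio of its array.

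**Figure D1:**
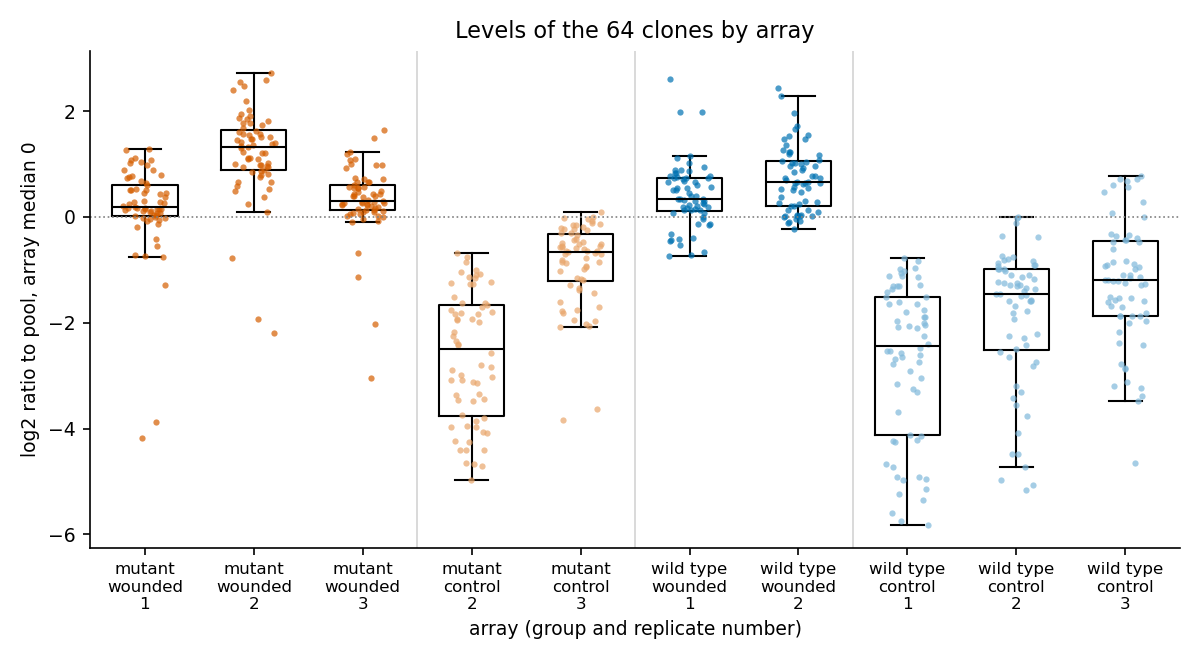
Log2 ratio to the pool of each of the 64 clones (points) on each of the 10 arrays, with boxes for the quartiles and medians. The 5 wounded arrays have medians from 0.18 to 1.32 and the 5 unwounded arrays medians from -2.49 to -0.66.

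In the mutant the wounding changes had a median log2 value of 2.20 and ran from 1.04 to 4.50. In wild type the median was 2.07, and the changes ran from 1.02 to 5.98. Over all 11153 rows the medians were -0.01 in the mutant and 0.00 in wild type. A change of 3 or more, at least 8-fold, was reached by 14 clones in the mutant and by 16 in wild type. A change of 4 or more was reached by 1 clone in the mutant and by 9 in wild type.

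The wounded mutant arrays all lay above the mutant controls for 62 of the 64 clones, as for 7.55% of all rows. In wild type the same held for 59 of the 64, beside 10.8% of all rows. With both genotypes together, 49 clones had every wounded array above every unwounded one, beside 1.28% of all rows. These counts follow from the rule, which used the same differences, and nothing is read from them. The 2 clones whose arrays overlapped in the mutant were cLED4L7 and cLED11M5, described below.

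Clone cLED14D15 had the largest change over both genotypes. It stood at 0.14, 1.02 and 0.07 on the wounded mutant arrays, against -4.41 and -1.61 on the mutant controls. In wild type it stood at 0.55 and 0.75 on the wounded arrays, against -5.36, -5.16 and -4.65 on the controls. The groups did not overlap in either genotype. Its change was 3.42 in the mutant (10.7-fold) and 5.70 in wild type (52.1-fold). The mutant change was 2.01 without mutant control replicate 2 and 4.82 without replicate 3.

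Clone cLED4N20 followed. Its wounded mutant arrays read -0.02, 2.48 and 0.74, against -4.07 and -1.78 on the mutant controls. Its wounded wild type arrays read 0.73 and 1.72, against -4.26, -2.65 and -2.86 on the wild type controls. The change was close in both, 3.99 in the mutant and 4.48 in wild type, and again no wounded array overlapped an unwounded one.

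Clone cLED4H10 averaged 1.09 ± 0.33 in wounded mutant leaves (SD, n = 3) and -2.32 ± 2.34 in mutant controls (SD, n = 2). In wild type it averaged 0.39 ± 0.25 in wounded leaves (SD, n = 2) and -4.15 ± 0.62 in controls (SD, n = 3). Clone cLED4O3 averaged 0.39 ± 0.33 in wounded mutant leaves (SD, n = 3) and -2.71 ± 2.19 in mutant controls (SD, n = 2). In wild type it averaged 0.65 ± 0.03 in wounded leaves (SD, n = 2) and -4.00 ± 1.45 in controls (SD, n = 3). In both clones the mutant controls carried the widest spread. Without mutant control replicate 2 the mutant change was 1.76 for cLED4H10 and 1.55 for cLED4O3, against 3.41 and 3.10 with all arrays.

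The levels behind changes of different size are given next, as a description only, since each change is the difference of these levels. Among the 17 clones with a mean change of 3 or more, the median of the clones' group means was 0.57 in wounded mutant leaves and -2.71 in mutant controls. In wild type it was 0.20 in wounded leaves and -3.73 in controls. Among the 25 clones with a mean change below 2, it was 0.57 in wounded mutant leaves and -0.96 in mutant controls. In wild type it was then 0.51 in wounded leaves and -1.11 in controls. The 22 clones between them stood at 0.72 and -1.84 in wounded and unwounded mutant leaves. They stood at 0.78 and -1.63 in wounded and unwounded wild type leaves.

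**Figure D2:**
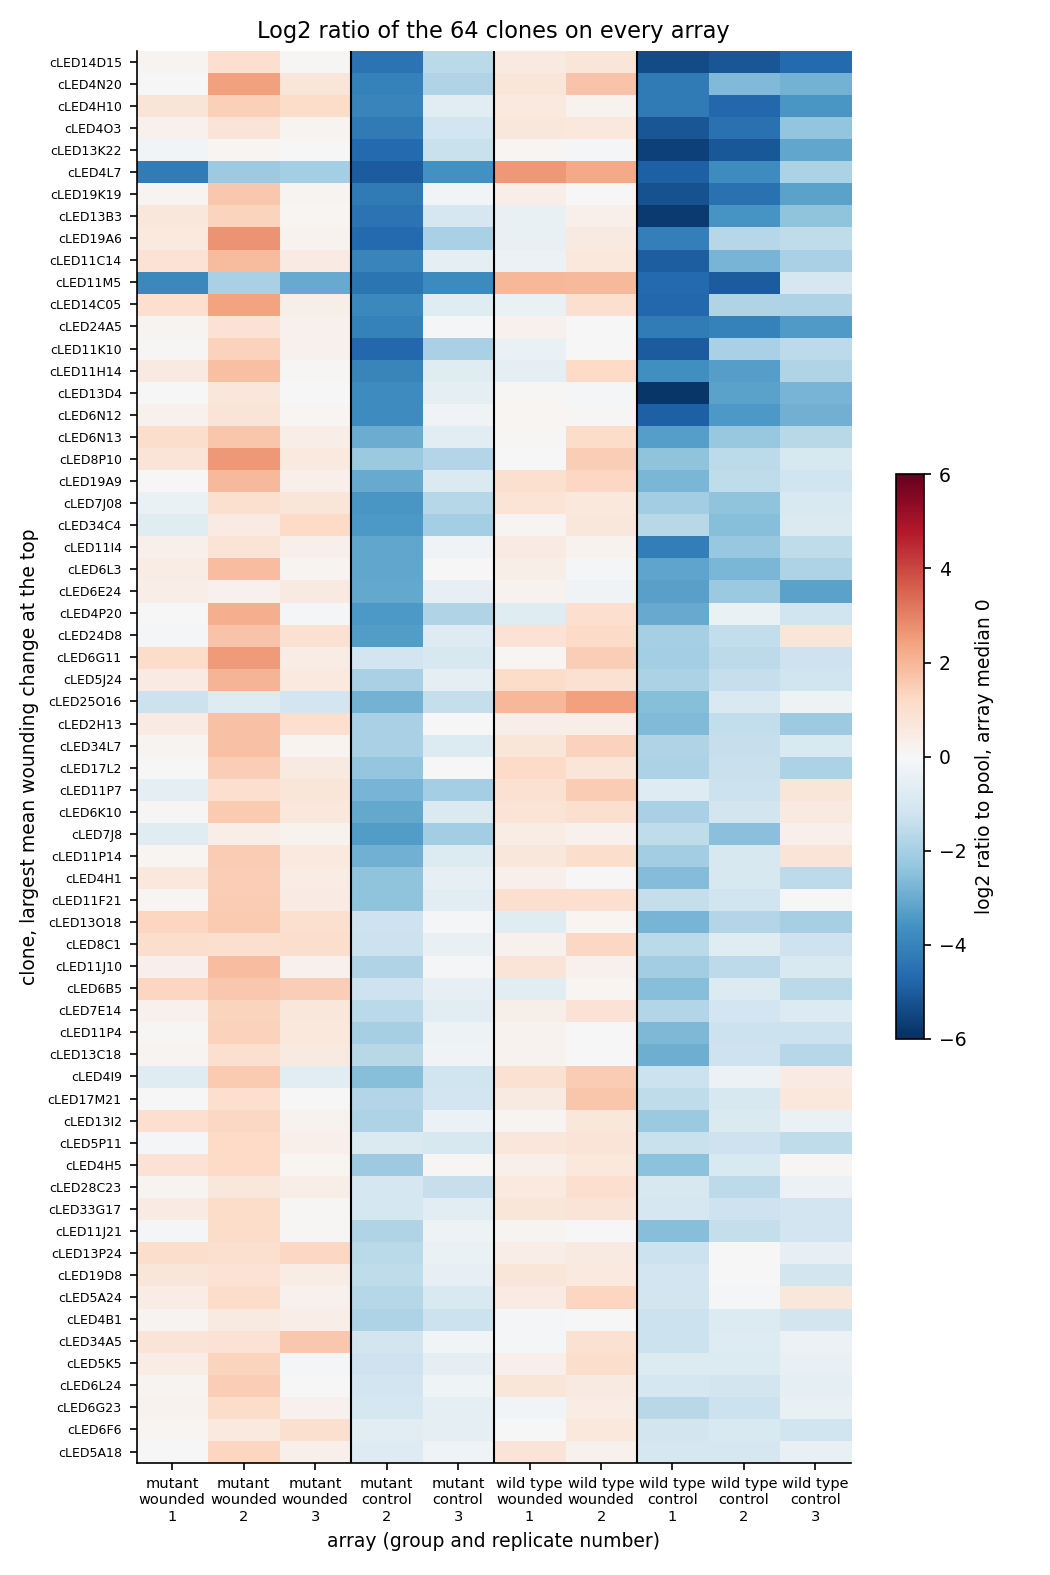
Log2 ratio to the pool of the 64 clones (rows, in order of mean wounding change) on the 10 arrays (columns, by group and replicate number). Red is above and blue below the array median, and the rows of cLED4L7, cLED11M5 and cLED25O16 are red only on the 2 wounded wild type arrays.

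In 3 clones the wild type change exceeded the mutant change by the most, and these stood low in the wounded mutant. Clone cLED4L7 stood at -4.17, -2.20 and -2.02 on the wounded mutant arrays, against -4.97 and -3.63 on the mutant controls. On the wounded wild type arrays it stood at 2.62 and 2.29, against -4.92, -3.77 and -1.88 on the wild type controls. It was high on the wounded wild type arrays only, and all other arrays lay below -1. Its change was 1.50 in the mutant (2.83-fold) and 5.98 in wild type (63.1-fold).

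Clone cLED11M5 had the same shape. It stood at -3.89, -1.94 and -3.04 on the wounded mutant arrays, against -4.40 and -3.84 on the mutant controls. It stood at 1.99 and 1.96 on the wounded wild type arrays, against -4.67, -4.98 and -0.99 on the wild type controls. Wild type control replicate 3 was the highest of the unwounded arrays for this clone, and its wounding change was 1.17 in the mutant and 5.52 in wild type.

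Clone cLED25O16 stood at -1.28, -0.78 and -1.13 on the wounded mutant arrays, against -2.83 and -1.45 on the mutant controls. It stood at 1.99 and 2.45 on the wounded wild type arrays, against -2.53, -0.91 and -0.32 on the wild type controls. Its wounded mutant arrays overlapped the range of the wild type controls. The change was 1.07 in the mutant, close to the limit of the rule, and 3.47 in wild type.

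In wounded plants alone, the mutant minus wild type difference was -5.25 for cLED4L7, -4.93 for cLED11M5 and -3.28 for cLED25O16. For the other 61 clones it ran from -1.16 to 1.73, with a median of 0.24. In these 3 clones, and in no other of the 64, every wounded mutant array lay below every wounded wild type array, as in 17.1% of all rows. The opposite order, every wounded mutant array above both wounded wild type arrays, was seen in 9 clones, beside 16.7% of all rows. The mutant changes of these 3 clones rest on the normalization and on single arrays. With quantile normalization they were 0.67 for cLED4L7, 0.13 for cLED11M5 and 0.42 for cLED25O16, and without mutant control replicate 2 they were 0.83, 0.89 and 0.38, all below the limit of the rule. Without wounded mutant replicate 2, cLED11M5 and cLED25O16 also fell short of it, at 0.66 and 0.93.

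**Figure D3:**
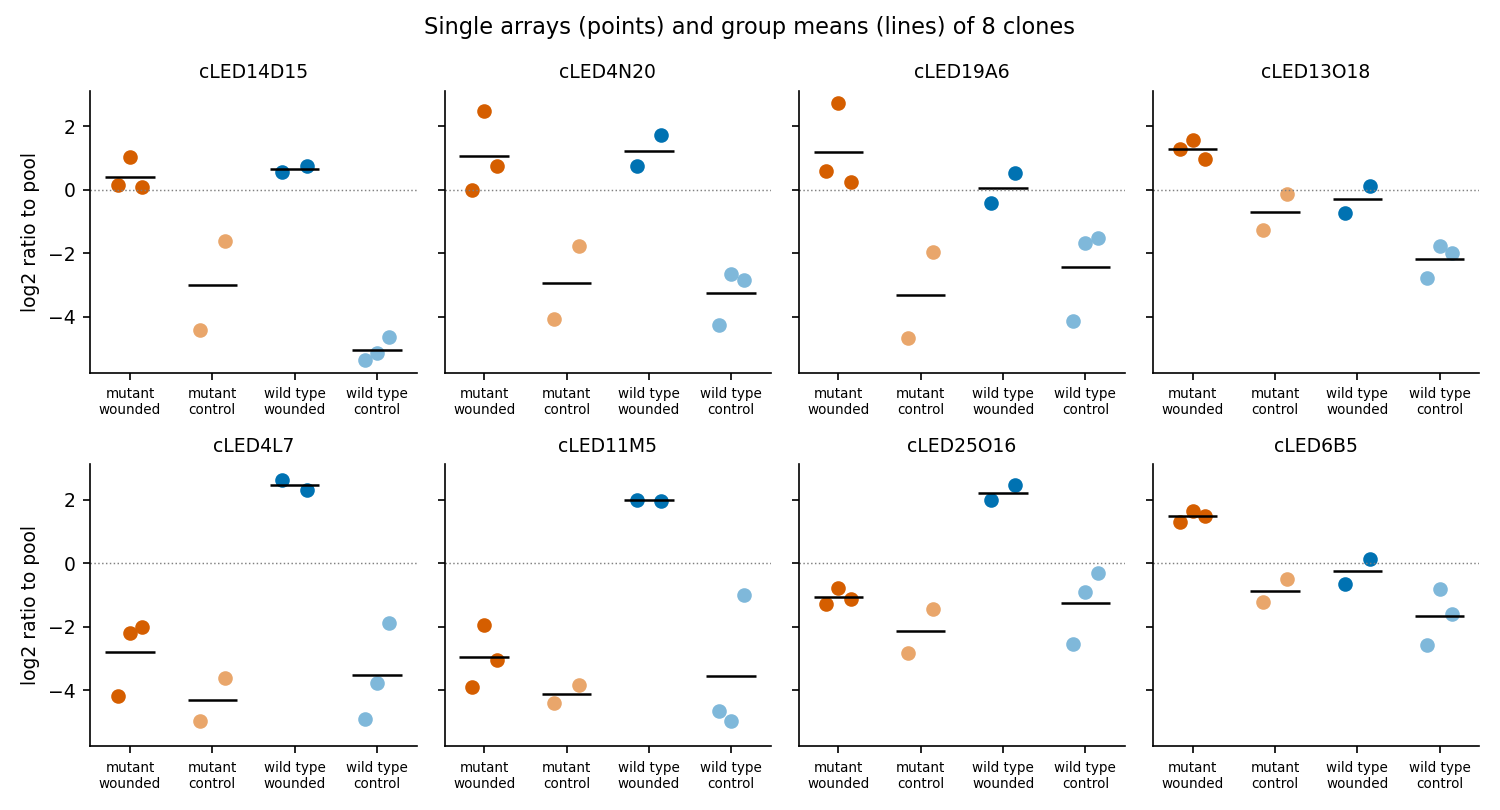
Log2 ratio to the pool of 8 clones on single arrays (points) with group means (lines), in wounded and control leaves of the mutant and of wild type. In cLED4L7, cLED11M5 and cLED25O16 the wounded mutant arrays lie at or below -0.78 and the wounded wild type arrays at or above 1.96.

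Some clones changed more in the mutant. Clone cLED19A6 stood at 0.60, 2.72 and 0.23 on the wounded mutant arrays, against -4.68 and -1.97 on the mutant controls. In wild type it stood at -0.43 and 0.52 on the wounded arrays, against -4.12, -1.69 and -1.52 on the controls. Wounded mutant replicate 2 was the highest array for it and mutant control replicate 2 the lowest, and its change was 4.50 in the mutant and 2.49 in wild type, or 1.65 there without wild type control replicate 1.

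Clone cLED4P20 changed by 3.35 in the mutant and 1.68 in wild type, where its arrays overlapped: -0.73 and 1.02 wounded, against -3.04, -0.39 and -1.18 unwounded. Its wild type change was below the limit, at 0.81 without wounded wild type replicate 2 and at 0.93 without wild type control replicate 1. Clone cLED11K10 changed by 3.90 in the mutant and 2.64 in wild type, or by 2.52 in the mutant when its control replicate 2 was left out and by 1.56 in wild type when its control replicate 1 was left out. Over the 64 clones, 28 changed more in the mutant and 36 more in wild type, and the mutant minus wild type difference of the changes had a median of -0.09. In 46 clones the changes lay within 1 of each other. Across the 64 clones, the changes in the genotypes correlated at Pearson's r = 0.36, a description over clones that share the same arrays and were picked on both values. The difference between the changes is made of the values that chose the clones and was not tested.

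**Figure D4:**
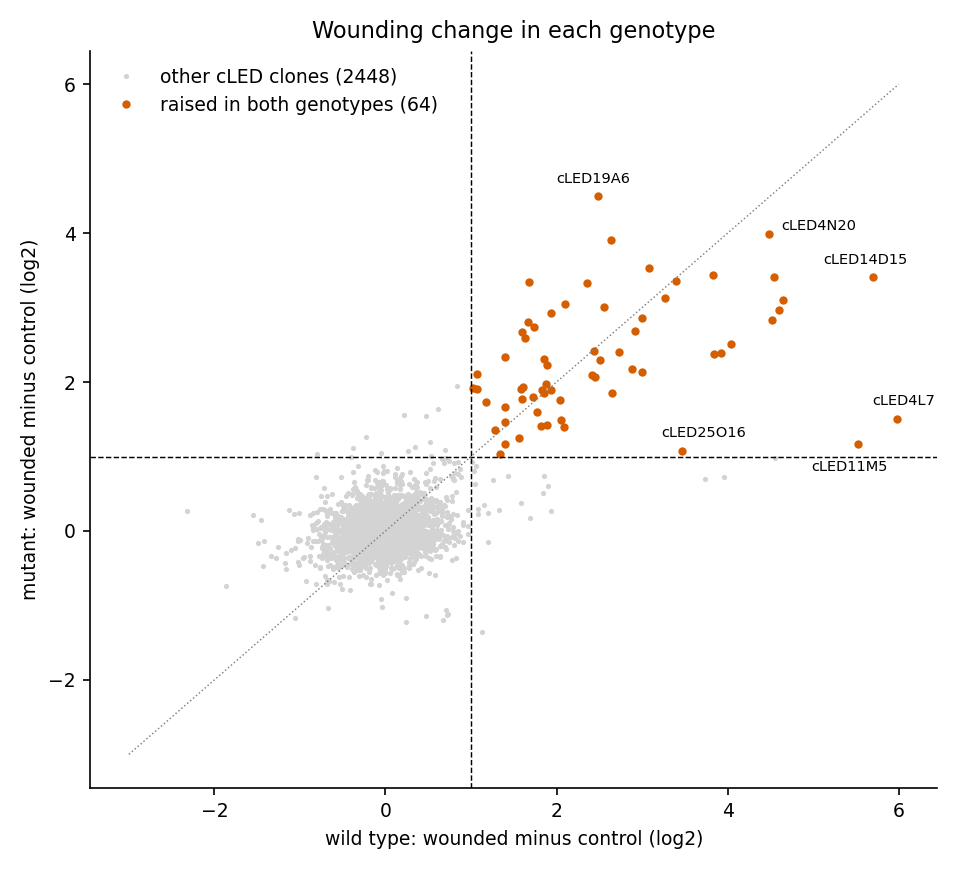
Wounded minus control log2 change in wild type (horizontal axis) and in the mutant (vertical axis) for all 2512 cLED clones, with the 64 clones in orange. Dashed lines mark the limit of 1 and the dotted line equal change. The lowest orange points at the right, cLED11M5 and cLED4L7, changed by 1.17 and 1.50 in the mutant and by 5.52 and 5.98 in wild type.

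At the limit of the rule, cLED4B1 lay just inside, with a change of 1.91 in the mutant and 1.02 in wild type, and so did cLED5A18, with 1.04 and 1.34. Just outside were cLED5B9, with a change of 0.99 in the mutant and 4.55 in wild type, and cLED21A3, with 0.93 and 1.01. The values of cLED5B9 were -1.51, 1.34 and -0.96 on the wounded mutant arrays and 1.92 and 1.99 on the wounded wild type arrays. Of all cLED clones, 22 passed the limit in wild type alone and 13 in the mutant alone. Only 1 cLED clone was lower by 1 or more in both genotypes.

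The spread between arrays of a group is given as a description, since a row with an extreme array can meet a rule on means of 2 or 3 arrays more easily. The SD of the clones within groups, pooled over the 4 groups, had a median of 0.82, beside 0.33 over all rows, and was above that value in 61 of 64 clones. Clone cLED4B1 had the smallest, 0.25, and cLED33G17 the next smallest. The largest belonged to cLED14C05, with 1.50, and to cLED13B3. For cLED14C05 the mutant controls read -3.86 and -0.70 and the wild type controls -4.72, -1.82 and -1.87. Across the 64 clones, mean change and this SD correlated at Pearson's r = 0.78, over clones that share arrays and were picked on the change.

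Within groups many of the clones deviated in the same direction. After the group means were taken out, the median Pearson's r over the 2016 pairs of the 64 clones was 0.70 over the 10 arrays, and 97.8% of the pairs were above 0. Among the other 2448 cLED clones the median over all pairs was 0.01. All pairs share the same arrays, the 64 clones were picked on these arrays and the others were not, so the medians are a description and no comparison is drawn. Mutant control replicate 2 was below replicate 3 in 62 of the 64 clones, beside 50.0% of all rows, by a median of 1.58 and up to 4.08. Wounded mutant replicate 2 was the highest of its group in 57 of the 64, beside 33.8% of all rows. Wild type control replicate 1 was the lowest of its group in 51 clones, beside 31.0% of all rows.

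By the medians above, mutant control replicate 3 stood closer to the wounded mutant leaves than replicate 2 did. In 17 of the 64 clones the lowest wounded mutant array was below replicate 3 or less than 0.5 above it. For replicate 2 this held in 0 clones. The same count over all rows was not made, and the clones were picked on the means of these arrays, so nothing is read from it. Without replicate 3, the median mutant change over the 64 clones was 3.01, and without replicate 2 it was 1.43. Without mutant control replicate 2, 47 of the 64 clones still met the rule. Leaving out any other array kept between 56 and all 64 of them. The descriptions number mutant control replicates 2 and 3 as 1 and 2. By that numbering, array 1 had the lowest median of the 64 clones in every group. These medians were 0.18 in the wounded mutant, -2.49 in the mutant control, 0.34 in wounded wild type and -2.43 in the wild type control. Why the mutant controls stood apart was not tested. The 55 clones of other prefixes that met the same limits showed the same order, with medians of -2.18 and -0.61 on mutant control replicates 2 and 3.

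The genotypes were then compared over both treatments, as the mean of the mutant groups minus the mean of the wild type groups. The rule did not use this contrast. Because groups are of unequal size, its error correlates at -0.14 with the error of each wounding change that chose the clones. By limma over all rows, 5 of the 64 clones passed a Benjamini-Hochberg adjusted p under 0.05, beside 4.47% of all rows. Of these, 2 were higher in the mutant (3.08% of all rows) and 3 lower (1.40%). With the sign turned, 3 would be higher and 2 lower.

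The 3 lower clones were those of the wild type pattern above. Clone cLED4L7 fell by 3.01 in the mutant (SE 0.56, limma adjusted p = 0.0113). Clone cLED25O16 fell by 2.08 (SE 0.39, limma adjusted p = 0.0119) and cLED11M5 by 2.75 (SE 0.65, limma adjusted p = 0.0361). These averages join unequal parts: in unwounded plants alone the differences were -0.78 for cLED4L7, -0.88 for cLED25O16 and -0.58 for cLED11M5. The call of cLED4L7 was lost without mutant control replicate 2 or wild type systemic wounded replicate 1, with a limma adjusted p of up to 0.0646. That of cLED25O16 was lost without either of these or wild type systemic wounded replicate 2, with up to 0.0672. That of cLED11M5 was kept in 4 of 10 fits without 1 array, those without mutant systemic wounded replicate 2 or a wild type control, and its limma adjusted p was otherwise up to 0.118.

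Of the clones higher in the mutant, cLED13O18 stood at 1.27, 1.57 and 0.97 on the wounded mutant arrays, against -0.73 and 0.12 on the wounded wild type arrays. Unwounded, it stood at -1.26 and -0.13 in the mutant, against -2.78, -1.77 and -2.01 in wild type. The genotypes did not overlap in either treatment. Its difference was 1.53 (SE 0.29, limma adjusted p = 0.0118), with 1.58 in wounded plants and 1.49 in unwounded plants. The call was lost without mutant control replicate 3 or wild type systemic wounded replicate 1, with a limma adjusted p of up to 0.0792.

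Clone cLED6B5 stood at 1.29, 1.63 and 1.49 on the wounded mutant arrays, against -0.65 and 0.13 on the wounded wild type arrays. Unwounded, it stood at -1.24 and -0.49 in the mutant, against -2.57, -0.80 and -1.61 in wild type, where the genotypes overlapped. Its difference was 1.26 (SE 0.31, limma adjusted p = 0.0425), and this call was kept in 2 of 10 fits without 1 array, those without wild type control replicate 1 or 2.

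For the other 59 clones the genotype difference did not pass, and the median over all 64 was 0.15, beside -0.01 over all rows. It was above 0 in 43 of the 64 clones, beside 48.9% of all rows. The median turned to -0.14 without mutant control replicate 3 and was 0.58 without replicate 2. The count of clones past the threshold changed when single arrays were left out. The shares of all rows in the fits below are not given, so nothing particular to these clones is read from that. With all arrays it was 5 by limma, beside 9 clones at an unadjusted p under 0.05. It was 7 without mutant control replicate 2, and these 7 were higher in the mutant and held 1 of the 5, cLED13O18. Leaving out mutant control replicate 3 gave 2. Leaving out replicate 1 or 3 of the wounded mutant gave 3 each. In wounded wild type, leaving out replicate 2 gave 2, and leaving out replicate 1 gave 0 by limma, beside 10 clones at an unadjusted p under 0.05. In unwounded plants, all mutant arrays lay above all wild type arrays in 5 clones, beside 15.1% of all rows, and below them in 1 clone, beside 14.1%.

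**Figure D5:**
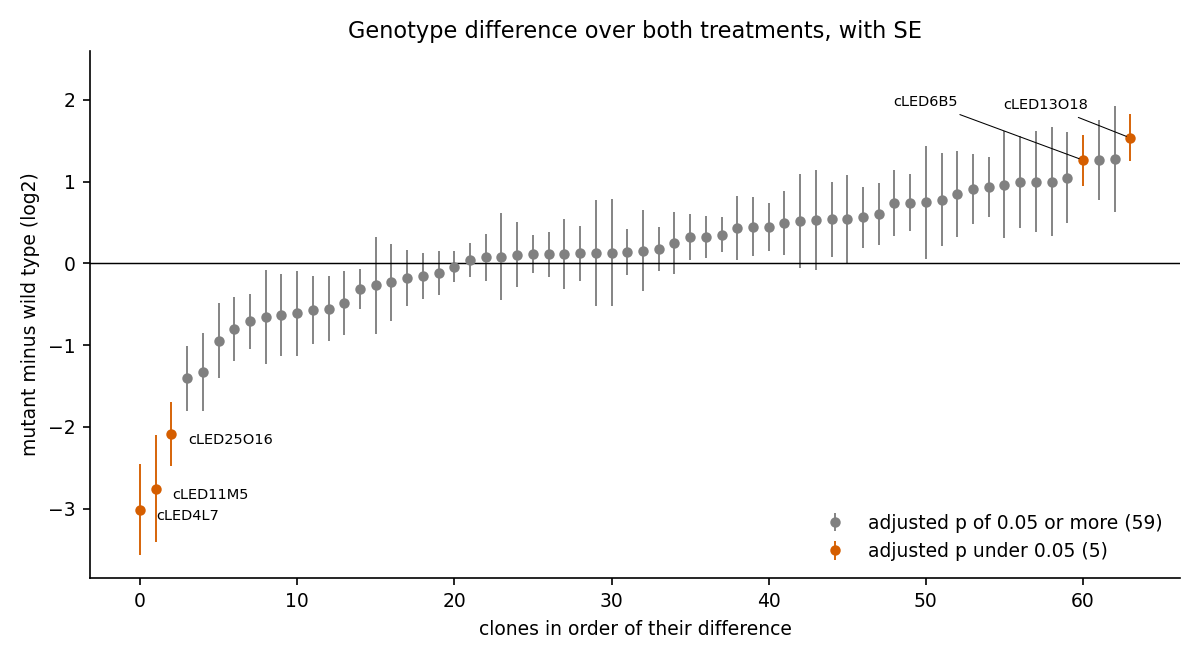
Mutant minus wild type log2 difference over both treatments for the 64 clones, in order of size, with limma's SE as bars. Orange marks the 5 clones with an adjusted p under 0.05: cLED4L7, cLED11M5 and cLED25O16 below 0, and cLED6B5 and cLED13O18 above 0.

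The clone names give a plate and a well. The 64 clones came from 16 of the 37 cLED plates, and plates 11, 6, 4 and 13 held 11, 10, 9 and 7 of them. These plates were picked for holding the most of the 64 clones, so no excess is read from their share. Together they held 57.8% of the 64 clones and 38.8% of the cLED rows whose names give a plate. Where the spots lay on the array is not given in the sources used here. Clones cLED7J8 and cLED7J08, whose names differ by a leading zero, both met the rule and correlated at Pearson's r = 0.94 over the 10 arrays. In the 15 other pairs of such names, none among the 64 clones, r ran from -0.68 to 0.78, with a median of -0.12. The neighbouring wells cLED6N12 and cLED6N13 both met the rule and correlated at 0.96. The median over all pairs of the 64 clones, which were picked on the same differences, was 0.86. Whether these rows hold the same transcript cannot be told from the files.

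Gene names stand in place of clone identifiers in 2 rows, both for proteins of green leaf tissue, and these rows did not meet the rule. Carbonic_anhydrase, whose enzyme hydrates carbon dioxide, changed with wounding by -0.04 in the mutant and -0.16 in wild type. Chlorophyla/bbindingprotein, for a protein that binds the chlorophylls of the light-harvesting antenna, changed by -0.38 in the mutant and -0.85 in wild type. For neither did the genotype difference pass, at a limma adjusted p of 0.64 for Carbonic_anhydrase and 0.113 for Chlorophyla/bbindingprotein.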

How the data were processed

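The authors deposited values that were read as log2 ratios of the channels, since on every array at least 99.7% of them are the log2 of some ratio with 3 decimals (tolerance 0.02 thousandths). The lowest ratio of a described clone, 0.0183, has more than 3 decimals, so the rounding is finer there. Per the labels, channel 1 held a pool of all samples. The image software, the background correction and any scaling are unknown. Of 11347 rows, 193 marked as failed and 1 blank were left out. Arrays were centred on a median of 0. The 10 arrays and 11153 rows were fitted jointly, with a mean for each of the 4 groups, in limma 3.58.1 (lmFit and eBayes, R 4.3.3), two-sided, with Benjamini-Hochberg adjustment over all rows, on 6 residual and 6.45 prior degrees of freedom. The fit was also run on simulated data with independent noise in every row and array. The described rows have correlated deviations, so that run does not vouch for the calls. The members, gene list and tests were chosen with earlier results of these data known. Clones were named by extremes of wounding change, of the difference between genotypes, of closeness to the limit and of spread within groups. Other normalizations, eBayes options, array weights, replicate blocks, limits and left-out arrays were tried. No intensities were analysed here, so whether low ratios came from spots of weak signal could not be checked. Precision is limited by how few arrays there are.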

Additional observations from a re-analysis of the deposited data

Results flagged for a closer look

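Of the 193 rows marked as failed, which were kept out of all comparisons, 1 (0.518%) met the limits of the wounding rule. This row, failed_QC8, changed by 1.53 in the mutant and 2.14 in wild type. Its wounded arrays stood above the unwounded arrays, which are the controls here, and it carries no clone name. The blank row changed by 0.01 in both genotypes. Groups of 2 or 3 arrays were too small for a test of single outlying arrays.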

How the results depend on the processing

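The number of cLED clones that met the rule, 64, became 27 with a limit of 2 and 104 with a limit of 0.5, by construction. With no centring, quantile or scale normalization, group medians or the failed and blank rows kept in the centring it was 57 to 65, and with an array left out 48 to 67. The count of clones called for genotype, 5, became 3 with trend and robust eBayes (the cause was not tested) and 0 to 7 with an array left out, which also leaves fewer arrays. With a replicate block the count was 5 for the numbering of the titles, 4 of them among the 5, with cLED6B5 no longer called (limma adjusted p = 0.0704). It was 6 for that of the descriptions, which number mutant control replicates 2 and 3 as 1 and 2, and all 5 were kept. Pairing was not settled. By title, 3 of 12 same-numbered pairs had deviations over all rows correlated above 0.1, and by description 5 of 13, up to 0.39. The lowest was -0.35 in both. The arrays described as replicate 1 of the mutant control, wounded mutant and wild type control correlated with each other at 0.34 to 0.39. With wounded wild type replicate 1 these arrays correlated at -0.30, -0.35 and -0.11. In a group of 2 arrays the deviations mirror each other, so pairs with them are not independent. The median genotype difference ran from -0.14 to 0.58 with an array left out and from 0.06 to 0.12 under the other normalizations. Of 306 repeats of the genotype differences of named clones, 24 lost a call and 2 gained one, and no called difference changed sign. Of 272 repeats of their wounding changes, 16 moved by more than the clone's SD within groups, 14 of them in the mutant. A change could fall below the limit of the rule without being counted as moved. With quantile normalization that of cLED11M5 in the mutant went from 1.17 to 0.13, beside an SD of 1.41. Quantile normalization gave cLED4L7 a change of 0.67 in the mutant and 4.51 in wild type.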
